A study of Mus musculus with 4 samples.

Results

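The genes described here are the 9 genes through which regulatory T (Treg) cells make adenosine, sense it and handle cyclic AMP, namely Nt5e, Entpd1, Adora2a, Pde3b, Pde4b, Pde4d, Pde7a, Crem and Prkar1a. They were taken by name from the 24418 genes of the deposited table, and all 9 were found. Treg cells came from the spleen and the lymph nodes of mice carrying Foxp3 YFP-Cre at 8 to 12 weeks of age. In these mice a yellow fluorescent protein fused to Cre is made from the Foxp3 locus, and Foxp3 is the factor that defines Treg cells. The sorted cells were held for 3 h either with 100 ng/mL TSLP (thymic stromal lymphopoietin, a cytokine of epithelial cells) or with PBS, so that both groups carried the same allele. Each group had 2 samples, named PBS 1, PBS 2, TSLP 1 and TSLP 2, and the labels do not say whether they came from different mice. The p-values therefore measure the spread between these samples, which may be technical. RNA-seq gave 11328132 and 10724392 reads on genes under PBS, and 11761234 and 10271571 under TSLP. Unless another scale is named, values are normalized read counts (reads over the size factor of their library), and those of a group are given with replicate 1 first.

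Treg cells restrain other T cells in part through adenosine and cyclic AMP. On the cell surface, CD39 (encoded by Entpd1) strips phosphates from ATP and ADP, and CD73 (encoded by Nt5e) turns the resulting AMP into adenosine. Adenosine acts on a receptor encoded by Adora2a, which raises cyclic AMP through a stimulatory G protein and adenylyl cyclase. Cyclic AMP frees the catalytic subunits of protein kinase A from regulatory subunits such as RIα (Prkar1a), phosphodiesterases (the Pde genes) break it down, and CREM is a transcription factor of the CREB family whose short form ICER is itself induced by cyclic AMP and represses.

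The libraries carried the genes of Treg cells, but PBS 1 stood apart from the others. Foxp3 was at 222 and 472 cpm (counts scaled by library total) under PBS, and 407 and 470 under TSLP. Ikzf2, which encodes Helios, was at 568 cpm in PBS 1 and at 953 to 996 cpm in the others. PBS 1 was the lowest library for 6 of the 9 Treg cell markers but the highest for 2, Ctla4 (1284 cpm, against 1142 to 1253 in the others) and Tnfrsf18 (532 cpm, against 348 to 427), and Lrrc32 differed little, at 1389 to 1507 cpm. The summed level of 9 Treg cell markers, the most abundant being Lrrc32, was 5187 and 5828 cpm under PBS, and 5807 and 5987 under TSLP. Of other cells, the 6 markers of CD8 T and NK cells summed to 13.1 to 25.7 cpm, led by Cd8b1, with Ncr1 at 0 reads in all libraries. B cell markers summed to 0.618 and 10.4 cpm under PBS, and 5.02 and 9.35 under TSLP. They were led by Cd79b except in TSLP 1, where Cd79a was higher. Of the 6, 5 were in the table, with Pax5 at 0 reads throughout. For the 8 markers of myeloid and dendritic cells the sums were 17.7, 11.9, 8.67 and 9.83 cpm in the same order. Cd68 led them except in TSLP 2, where it was at 1.56 cpm and Lyz2 at 3.89. Adgre1 and Flt3 were at 0 reads throughout. The 9 markers of conventional T cells, most of which Treg cells express too, summed to 4046 and 3664 cpm under PBS, and 3884 and 3626 under TSLP, with Ccr7 as the most abundant. PBS 1 also differed in the length of the genes it favored. Over 2679 well-read genes, the log2 ratio of a library to the mean of the other 3 was set against exon length. Spearman's rho was -0.657 for PBS 1 and positive for the others, at 0.569 (PBS 2), 0.399 (TSLP 1) and 0.303 (TSLP 2), where the points are genes and not independent replicates. Since PBS 1 enters the mean that each of the others is set against, their values are not separate from its own. The 9 genes are long: the median of their exon lengths is 7748 bases, and that of all tested genes 4466. Values without PBS 1 are therefore given for the 9 genes, for the gene lists and for the most read genes of each list, and the part that these differences play in the results was not tested. In such bulk samples, fewer cells of a type and less RNA per cell cannot be told apart.

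In mm10 (GENCODE M21) Nt5e lies at chr9:88327197-88372092, Entpd1 at chr19:40612366-40741602, Adora2a at chr10:75316877-75334784, Pde3b at chr7:114415281-114539251, Pde4b at chr4:102087543-102607259, Pde4d at chr13:108449948-109953461, Prkar1a at chr11:109649405-109669656 (all on the forward strand) and Pde7a at chr3:19223108-19311322 (reverse strand).

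The 9 genes spanned a wide range of levels. Since longer genes collect more reads, levels of different genes were compared as RPKM, here the reads of a gene divided by its exon length and by the total on genes of the library. Prkar1a and Crem led, with 186 ± 9.13 and 153 ± 22.0 (SD over 4 libraries), which placed them above 98.4% and 97.9% of the genes tested. Their ranges overlapped, so that their order is not settled. Adora2a followed at 81.7 ± 6.995 and Nt5e at 40.9 ± 5.93, each clear of its neighbours in every library. Among the phosphodiesterases, Pde4b had 27.9 ± 2.67, Pde4d 22.3 ± 2.59 and Pde7a 19.0 ± 2.89, and each overlapped with the next. Pde3b lay lower, at 6.79 ± 1.60, and Entpd1 was the lowest at 4.10 ± 1.29, with ranges that overlapped. Per length, the CD73 gene Nt5e thus exceeded the CD39 gene Entpd1 by 14.1 and 10.8 times under PBS, and 11.4 and 6.50 times under TSLP.

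**Figure D1:**
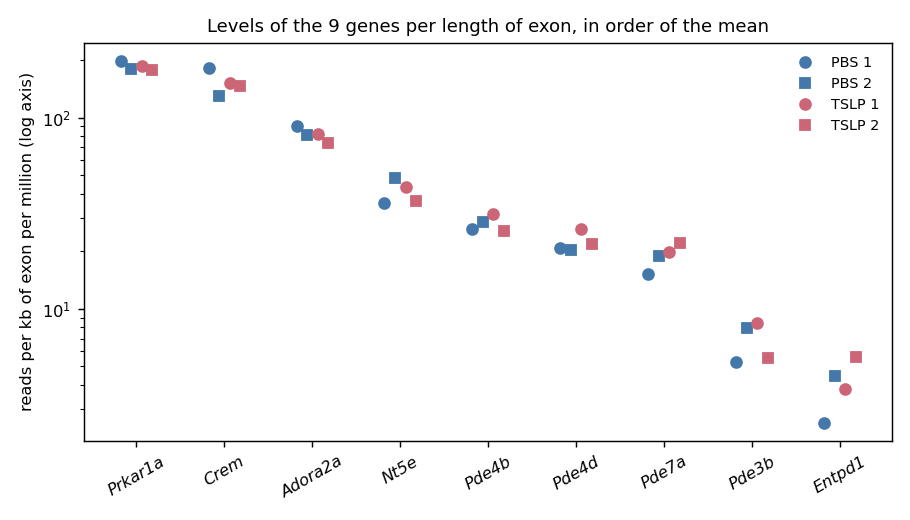
Level of each of the 9 genes in each library, as RPKM (reads per exon length and library total, log axis), with genes ordered by the mean over 4 libraries; blue marks PBS, red marks TSLP, circles replicate 1 and squares replicate 2. Prkar1a (mean 186) and Crem (mean 153) are the highest and Entpd1 (mean 4.10) the lowest, and the libraries of a gene lie close together against the distance between most genes.

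To see how TSLP bears on this pathway, the TSLP libraries were compared with the PBS libraries by limma on log2(normalized read count + 1). No change was detected in any of the 9 genes. All 9 passed the filter on low counts, and 0 of them had an adjusted p under 0.05 (limma with Benjamini-Hochberg adjustment over all genes tested, adjusted p = 0.9999 for each), where 0% of the 11392 genes tested passed. The unadjusted p was under 0.05 for 0 of the 9, against 1.69% of all genes (192 genes, 0.772% higher and 0.913% lower), and the smallest among the 9 was 0.188. edgeR and DESeq2 on the recovered reads also called 0 genes at an adjusted p under 0.05 over the whole table, and 234 genes each at an unadjusted p under 0.05, none of them among the 9. The log2 fold changes of the 9 genes ran from -0.13 to 0.47 with a median of 0.061, beside a median of 0.012 over all genes tested. TSLP gave higher values in 5 of the 9 and lower values in 4. These counts depended on single libraries. They were 6 and 3 without PBS 1 and also without PBS 2, 3 and 6 without TSLP 1, and 8 and 1 without TSLP 2. Of all genes tested, 52.7% were higher without TSLP 1 and 53.2% without TSLP 2. In 2 of the 9, Pde4d and Pde7a, the TSLP libraries both exceeded the PBS libraries, as they did in 14.5% of all genes, and in 0 of the 9 they lay below, as in 14.4%. With 2 libraries a group, an exact permutation test of a single gene cannot go below a two-sided p of 0.333. For 8 of the 9 genes, all but Pde7a, the difference between the groups was smaller than the larger of the differences between replicates.

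**Figure D2:**
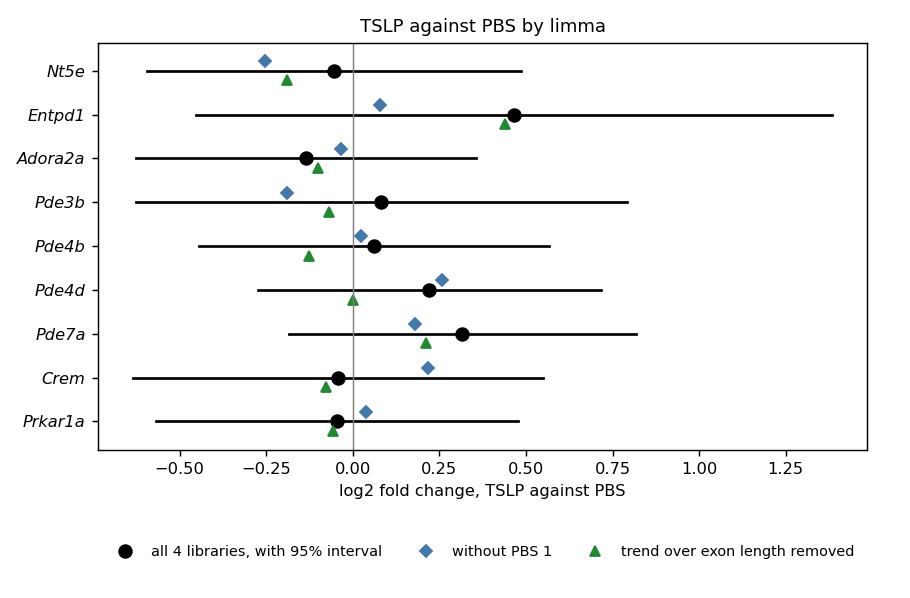
Log2 fold change of each of the 9 genes, TSLP against PBS, by limma. Black circles with lines give the value over all 4 libraries and its 95% interval, blue diamonds the value without PBS 1, and green triangles the value after the trend of each library over exon length was removed. Every interval spans 0, from the narrowest for Pde4d and Adora2a to the widest for Entpd1 (-0.45 to 1.38).

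Of the enzymes that make adenosine, Nt5e was abundant and its groups overlapped. Its normalized read count was 3371 and 4449 under PBS, and 4129 and 3371 under TSLP, so that the lowest library of each group held almost the same value. The means were 3910.2 ± 762 (SD, n = 2) with PBS and, with TSLP, 3750.3 ± 536 (SD, n = 2). This gave a log2 fold change of -0.054, with a 95% interval from -0.59 to 0.49, or 0.663-fold to 1.40-fold. It was -0.25 without PBS 1, 0.15 without PBS 2, and -0.19 with the trend over exon length removed. Entpd1 was read less, with 160 to 322 reads over the libraries. Its normalized read count was 155 and 266 under PBS, and 235 and 337 under TSLP. The groups overlapped, since TSLP 1 lay below PBS 2, and replicate 2 was the higher library in both groups. The means were 211 ± 78.5 (SD, n = 2) and 286 ± 72.1 (SD, n = 2). Its log2 fold change of 0.47 (standard error 0.41) was the highest of the 9 genes, but limma gave an unadjusted p = 0.281 and a Benjamini-Hochberg adjusted p = 0.9999. Leaving out 1 library moved it from 0.078 (without PBS 1, the library with the lowest Entpd1) through 0.21 (without TSLP 2) and 0.73 (without TSLP 1) to 0.85 (without PBS 2).

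Adora2a, the receptor gene, varied less over the libraries than Entpd1 and about as much as Nt5e. Its highest library was 1.26 times its lowest, against 1.32 for Nt5e and 2.17 for Entpd1, which had far fewer reads. It had 3049 and 2654 under PBS, and 2773 and 2420 under TSLP, and the groups overlapped. The means were 2852 ± 279 (SD, n = 2) with PBS and, with TSLP, 2597 ± 250 (SD, n = 2). This is a log2 fold change of -0.13, its 95% interval running from -0.63 to 0.36. Without PBS 1 it was -0.035. The other adenosine receptor genes were hardly read. They were chosen for mention as relatives of Adora2a. Adora1 had 8 reads in PBS 2 and 0 in each other library, Adora2b had 7 reads in TSLP 1 and 0 elsewhere, and Adora3 had 0 reads in all 4 libraries. No reads allow up to 3 reads, or 0.255 to 0.292 cpm, a limit that covers counting error only.

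The phosphodiesterase genes gave the pair whose groups did not overlap. PDE7A is a phosphodiesterase that is selective for cyclic AMP. Pde7a had 1296 and 1565 under PBS, and 1706 and 1843 under TSLP, so that both TSLP libraries were the higher ones. Its means were 1430.3 ± 190.1 (SD, n = 2) and 1775 ± 97.1 (SD, n = 2). The log2 fold change was 0.32 (standard error 0.22, 95% interval -0.19 to 0.82), with an unadjusted p = 0.188 in limma and an adjusted p = 0.9999 after Benjamini-Hochberg. It was 0.18 without PBS 1 and 0.45 without PBS 2. In the latter fit, which assumes that the lone PBS library varies like the TSLP libraries, the unadjusted p was 0.0442 and, by limma and Benjamini-Hochberg, the adjusted p was 0.299, where 1858 of the 11392 genes had an unadjusted p under 0.05.

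PDE4B and PDE4D are closely related enzymes of the family that the drug rolipram blocks. Pde4d had 2751 and 2617 under PBS, and 3464 and 2821 under TSLP. TSLP 2 was only just above PBS 1, and TSLP 1 was the one high library. The groups differed by 0.22 on the log2 scale (95% interval -0.27 to 0.71), which in limma had an unadjusted p = 0.341 and an adjusted p = 0.9999 after Benjamini-Hochberg. The value was 0.26 without PBS 1, 0.072 without TSLP 1, and 0.0015 when the trend of each library over exon length was removed, Pde4d being the longest of the 9 genes with 12006 bases of exon. For Pde4b the values were 3049 and 3215 under PBS, and 3686 and 2893 under TSLP. Here TSLP 1 was again the highest library, but TSLP 2 the lowest. The log2 fold change of Pde4b was 0.061 (95% interval -0.44 to 0.57). It was 0.023 without PBS 1 and -0.13 with the trend over exon length removed.

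PDE3B is a phosphodiesterase whose gene Foxp3 is known to repress in Treg cells. Pde3b had 530 and 774 under PBS, and 849 and 542 under TSLP. A high and a low library stood in each group, and the replicates differed by up to 0.65 on the log2 scale within a group. The log2 fold change was 0.083 (95% interval -0.63 to 0.79), -0.19 without PBS 1 and -0.070 with the trend over exon length removed. PBS 1 was the library with the lowest Foxp3 (222 cpm) and also with the lowest Pde3b. Pde3b was nearly as low in TSLP 2, where Foxp3 was at 470 cpm. The part of Foxp3 in these levels was not tested.

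Taken per length, the 4 phosphodiesterase genes together came to 67.7 and 75.4 RPKM under PBS, and 85.8 and 75.1 under TSLP. TSLP 2 and PBS 2 were alike, and the groups overlapped. Pde4b held the largest share in every library, from 34.0% in TSLP 2 to 38.8% in PBS 1. The share of Pde7a was 22.5% and 25.0% under PBS, and 23.2% and 29.5% under TSLP.

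**Figure D3:**
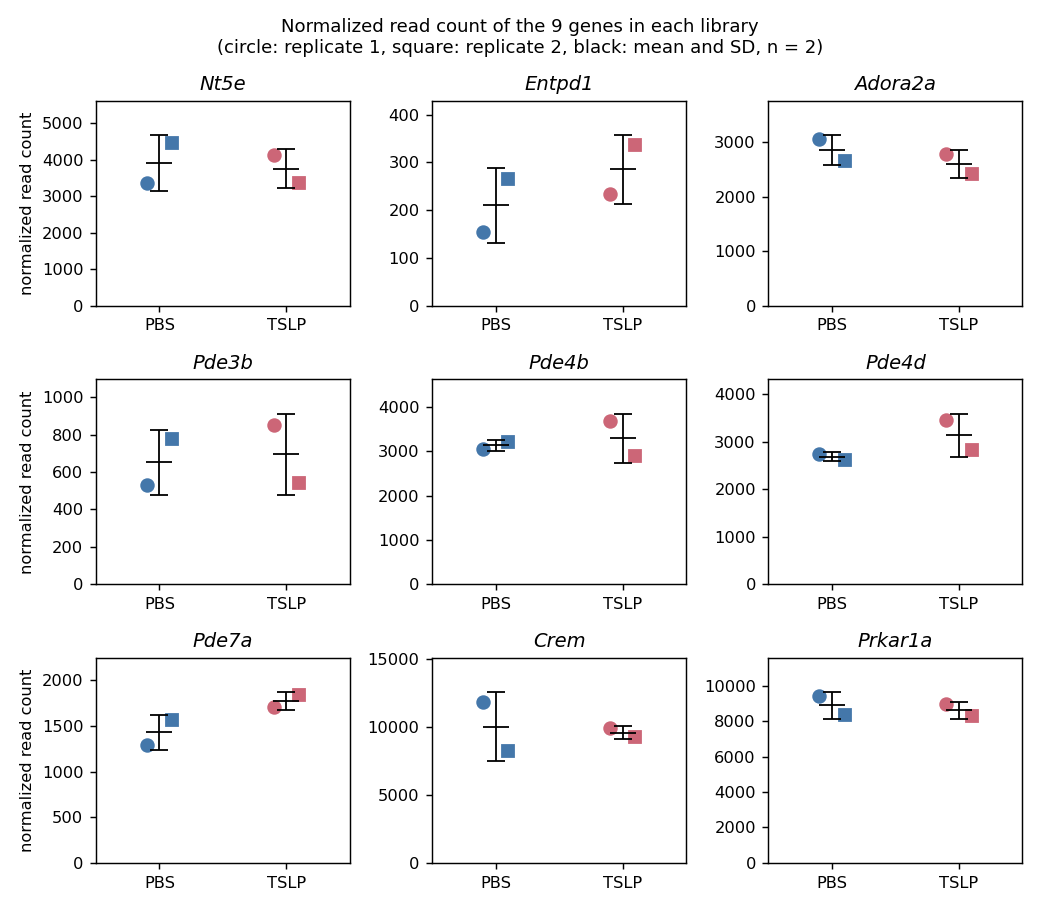
Normalized read count of each of the 9 genes by group, with the vertical axis of each panel starting at 0; circles are replicate 1, squares replicate 2, and black bars the mean and SD of 2 libraries. In Pde7a and Pde4d both TSLP libraries lie above both PBS libraries, and in the other 7 genes the groups overlap.

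Downstream of cyclic AMP, Crem and Prkar1a were among the most read genes of the table. Crem had 11835 and 8246 under PBS, and 9944 and 9243 under TSLP. Both TSLP libraries lay between the PBS libraries. The means were 10040.3 ± 2537 (SD, n = 2) with PBS and, with TSLP, 9593 ± 496 (SD, n = 2), so that the PBS libraries were further apart than the group means. The log2 fold change was -0.043 with a 95% interval from -0.63 to 0.55, and 0.22 without PBS 1. On the opposite strand, 8.01% of the exon length of Crem is overlapped by the transcript Gm6225, which had a normalized read count of 16.5 (PBS 1) to 53.0 (PBS 2), and 5.73% of the 50-base words of Crem, the length of the reads, also occur there. Prkar1a had 9419 and 8364 under PBS, and 8938 and 8264 under TSLP. It was the least variable of the 9 genes, with its highest library 1.14 times its lowest. Its log2 fold change was -0.047 (95% interval -0.57 to 0.48), and 0.039 without PBS 1. For the other genes, at most 0.154% of the 50-base words of their transcripts were also found in transcripts of other genes.

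Crem and Prkar1a were both lower in replicate 2 than in replicate 1 in each group, as were Adora2a and Pde4d. Entpd1 and Pde7a were higher in replicate 2 in each group, and Nt5e, Pde3b and Pde4b were higher in replicate 2 with PBS and lower with TSLP. PBS 1 held the highest value of 3 genes (Adora2a, Crem and Prkar1a) and the lowest of 4 (Nt5e, Entpd1, Pde3b and Pde7a). Over all genes tested it held the highest value of 32.4% and the lowest of 35.6%, more often than any of the other libraries.

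Promoter windows from RefSeq (build GRCm38.p6, 250 bases before a start and 50 after it) were at hand for 5 of the 9 genes, Nt5e, Entpd1, Pde4b, Pde4d and Prkar1a, with 14 windows in all. They were searched on both strands for the cyclic AMP response element CRE (TGACGTCA), the site that CREB and CREM bind, for its short core TGACG, which is contained in the full element, and for the STAT site TTCNNNGAA, since TSLP acts through STAT5. The full CRE was found in 2 overlapping windows of Prkar1a and in none of the other 4 genes, against 1.79% of 32851 windows of all genes. The short core was present in 6 of the 14 windows, from Entpd1, Pde4b and Prkar1a, against 20.8% of all windows. These windows are not separate finds, since the 2 overlapping windows of Prkar1a share their short cores, some of which lie within the full CRE. A STAT site was present in 1 window, of Pde4b, against 8.30% of all windows. The stretches are shown because they hold the letters that CREB family and STAT factors recognise, close to the starts of these genes, and a match is a description, not a site. Capitals mark the match, which for the short core is its reverse complement, and all are written 5′ to 3′ on the forward strand, from which the genes are read.
Prkar1a, full CRE, chr11:109650889-109650918: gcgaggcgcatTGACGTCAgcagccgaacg
Entpd1, short core at the first start, chr19:40612219-40612247: agtcgcgtacttCGTCAtcagcttccgtc
Entpd1, short core at the second start, chr19:40659575-40659603: gaacacatactaCGTCAagcctagaaaaa
Pde4b, short core, chr4:102421509-102421537: gatttggctgcaCGTCAattttctcatct
Pde4b, STAT site, chr4:102569900-102569928: ctttgagaatTTCCCAGAAagcaataaat
The full CRE in Prkar1a begins 49 bases before the annotated start of 1 window. In the overlapping window the same element begins at base 39, counting the start as base 1. The matches in Entpd1 begin 135 and 183 bases before their starts, and those in Pde4b 34 bases (short core) and 150 bases (STAT site) before theirs. Prkar1a had further short cores outside the full CRE, at chr11:109649212-109649216 and chr11:109650762-109650766, which are not printed. Nt5e and Pde4d had no match to any of these letters in their windows. Binding of a factor was not measured. The genes with matches, Entpd1, Pde4b and Prkar1a, had log2 fold changes of 0.47, 0.061 and -0.047 with TSLP.

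The wider pathway was described with lists of 108 further genes, of which 79 passed the filter on low counts and 18 lay at or under 3 reads in every library. By limma, 0 of the 79 had an adjusted p under 0.05 (Benjamini-Hochberg adjustment over all genes tested), and 0 had an unadjusted p under 0.05, also by edgeR and DESeq2. There were 44 higher and 35 lower with TSLP, with a median log2 fold change of 0.059, where 5838 of all genes tested were higher and 5554 lower. The sign counts of most lists below depended on single libraries. Without PBS 1, 36 of the 79 were higher and 43 lower, with a median of -0.037, and 5496 of all genes tested were higher and 5896 lower, with a median of -0.014. Without TSLP 2, 57 of the 79 were higher and 22 lower, with a median of 0.13. In that fit 6058 of all genes tested were higher and 5334 lower. The TSLP libraries were both above the PBS libraries in 9 of the 79 pathway genes and both below in 5. Together these were 17.7%, against 28.9% over all genes tested.

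**Figure D4:**
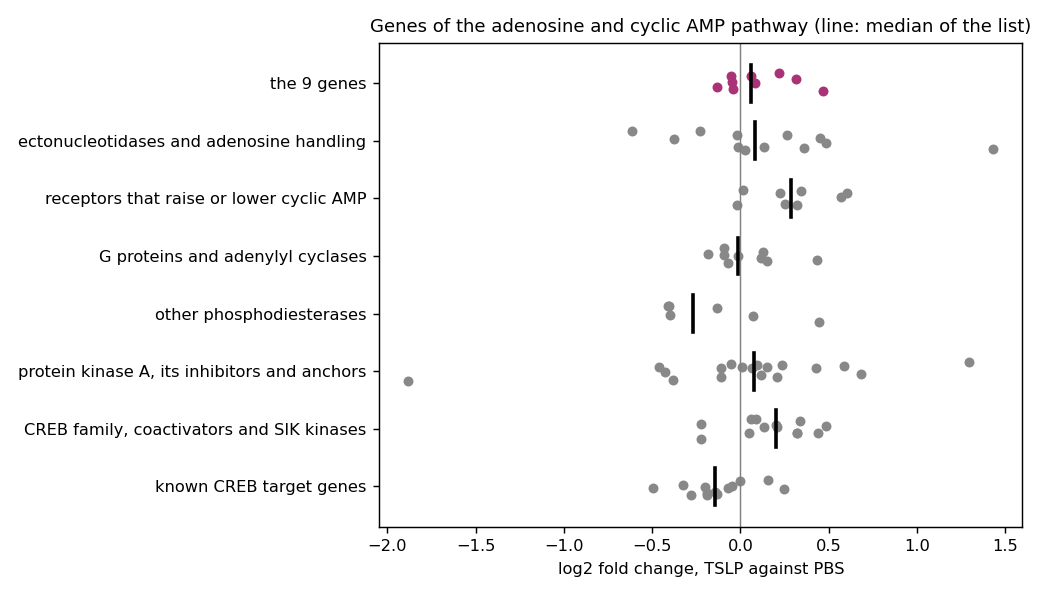
Log2 fold change, TSLP against PBS by limma, of the 9 genes (purple) and of the tested genes of 7 further lists of the pathway (grey), each point a gene and each black line the median of a list; points are spread vertically only to be seen. The medians lie between -0.27 for other phosphodiesterases (6 genes) and 0.29 for receptors that raise or lower cyclic AMP (8 genes), and 0 of the genes plotted had an unadjusted p under 0.05.

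Among enzymes and transporters of adenosine and its precursors, 12 of 18 genes were tested, 7 of them higher and 5 lower, with a median of 0.081. Without PBS 1 these were 4 higher and 8 lower, with a median of -0.11. The genes with the most reads were Adk, the kinase that returns adenosine to AMP, Dpp4, which holds adenosine deaminase on the surface of human cells, and Panx1, a channel that releases ATP. Their log2 fold changes were -0.018, 0.027 and -0.013. Without PBS 1 these were 0.31, -0.30 and -0.14, and without PBS 2 they were -0.34, 0.35 and 0.11. Entpd2 and Entpd4, relatives of Entpd1, had 0 reads in all libraries, and Entpd3 had 28 reads in PBS 1 and 0 elsewhere.

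Of 11 receptor genes 8 were tested, 7 higher and 1 lower, with a median of 0.29 (0.14 without PBS 1), and 0 of the 8 had groups without overlap. The counts stayed 7 and 1 without PBS 1 and without TSLP 2, but were 5 and 3 without PBS 2, and 6 and 2 without TSLP 1. S1pr1, the receptor that guides exit from lymph nodes, had a value of 0.016 (0.12 without PBS 1). Ptger4, the EP4 receptor for prostaglandin E2, had 1817 and 1424 under PBS, and 1658 and 1523 under TSLP, a log2 fold change of -0.018 (0.16 without PBS 1). Gpr174, a receptor for lysophosphatidylserine that restrains Treg cells, was at 1412 in PBS 1 and at 2042 to 2306 in the others. The groups differed by 0.25 on the log2 scale, or by -0.10 once PBS 1, the one low library, was left out, and by 0.61 without PBS 2.

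The G protein genes Gnas (stimulatory) and Gnai2 (inhibitory) had log2 fold changes of -0.013 and -0.071, and Cap1, an actin regulator that also binds adenylyl cyclase, had 0.12. Without PBS 1 these were 0.17, 0.011 and 0.15. Of 9 tested genes in this list 4 were higher and 5 lower, with a median of -0.013, but 6 were higher and 3 lower without PBS 1 (median 0.13), and 8 higher and 1 lower without TSLP 2 (median 0.15). Among 10 adenylyl cyclase genes, Adcy7 had the highest level per length, at 15.3 ± 1.67 RPKM (SD over 4 libraries), followed by Adcy3 at 4.24 ± 0.877 and Adcy6 at 3.86 ± 0.445, which overlapped. These cyclases were picked for their level after the values were seen. Adcy2, Adcy5, Adcy8 and Adcy10 had 0 reads.

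Beyond the 4 phosphodiesterase genes above, 6 of 12 others were tested, 2 higher and 4 lower, with a median of -0.27 (-0.30 without PBS 1, but 0.056 without TSLP 1). Pde2a, an enzyme that cyclic GMP stimulates, was the most read, at 2935 and 2602 under PBS, and 2953 and 2149 under TSLP. Per length, its 39.7 ± 5.12 RPKM (SD over 4 libraries) exceeded the 27.9 ± 2.67 of Pde4b. The groups differed by -0.13 on the log2 scale, or by -0.047 without PBS 1. The value was -0.36 without TSLP 1 and 0.096 without TSLP 2, so that its sign depended on the TSLP libraries. Pde1b, which calcium and calmodulin activate, was at 434 and 485 under PBS, and 280 and 432 under TSLP. Both TSLP libraries were the lower ones, though TSLP 2 by little, and the log2 fold change of -0.40 had an unadjusted p = 0.242 in limma and an adjusted p = 0.9999 after Benjamini-Hochberg. It was -0.48 without PBS 1 and -0.089 without TSLP 1. Pde8a, which is selective for cyclic AMP, was at 249 in PBS 1 and at 458 to 547 in the others, with a log2 fold change of 0.45 that was -0.11 without PBS 1 and 1.004 without PBS 2. Relatives of the 9 genes in this list were low. Pde3a had 0 reads, Pde7b at most 7 reads in a library and Pde4c at most 49, while Pde4a had 191 to 305.

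Prkar1a had the highest level of the protein kinase A subunit genes. Its 186 ± 9.13 RPKM compared with 3.49 ± 0.887 for Prkar2a and 0.363 ± 0.301 for Prkar1b (SD over 4 libraries), while Prkar2b had 14 reads in TSLP 1 and 0 elsewhere. The catalytic subunit genes Prkaca and Prkacb were at 15.7 ± 2.93 and 12.1 ± 1.61 on the same scale, with ranges that overlapped. These relatives of Prkar1a were named after the values were seen. In the list of protein kinase A genes and anchors 18 of 22 were tested, 11 higher and 7 lower, with a median of 0.078, but 6 were higher and 12 lower without PBS 1 (median -0.082). Its most read genes, Akap13, Ezr and Akap8, which encode proteins that anchor the kinase, had log2 fold changes of 0.21, -0.053 and -0.11. Without PBS 1 these were -0.17, 0.080 and -0.27, and without PBS 2 they were 0.58, -0.19 and 0.051, so that each differed in sign between these fits. Akap11, an anchor gene with the smallest p of all 79 genes and so named after its value was seen, was at 633 and 956 under PBS, and 1050.4 and 1297 under TSLP. Its log2 fold change of 0.58 had an unadjusted p = 0.0619 in limma and an adjusted p = 0.9999 after Benjamini-Hochberg, and was 0.29 without PBS 1 and 0.88 without PBS 2.

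Among the CREB family, its coactivators and the SIK kinases that hold those coactivators in the cytoplasm, 13 of 14 genes were tested, 11 higher and 2 lower, with a median of 0.20. PBS 1 was the lowest library for 8 of the 13, and without it 4 were higher and 9 lower, with a median of -0.067. Crebbp, a coactivator, was at 1895 and 4165 under PBS, and 4361 and 3336 under TSLP. It was low in PBS 1 alone, and its log2 fold change of 0.44 had an unadjusted p = 0.239 in limma and an adjusted p = 0.9999 after Benjamini-Hochberg, and was -0.13 without PBS 1 and 1.01 without PBS 2. Sik1, itself induced by cyclic AMP, and Sik3 had values of 0.047 and 0.13, and 0.10 and -0.037 without PBS 1. Without TSLP 1 these were -0.29 and 0.12, and without TSLP 2 they were 0.39 and 0.15.

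Of the genes known as targets of CREB, 2 of 13 tested were higher and 11 lower, with a median of -0.14. Without PBS 1, 8 were higher and 5 lower, with a median of 0.081, and without TSLP 2 the counts were 11 and 2. The difference between this list and the CREB family was not tested. The most read were Nr4a1, Nr4a3 and Rgs2, whose log2 fold changes were -0.19, 0.16 and -0.0036. The range of Nr4a1 was from 19452 in TSLP 2 to 32266 in PBS 1, and its log2 fold change was 0.12 without PBS 1, 0.040 without TSLP 2 and -0.50 without PBS 2. For Nr4a3 the value was 0.11 without PBS 1, 0.0054 without TSLP 1 and 0.31 without TSLP 2. In this list PBS 1 held the highest value of 8 of the 13 genes and TSLP 2 the lowest of 8, and the median over the list was higher in replicate 1 than in replicate 2 of each group. Crem had its highest value in PBS 1 as well. Rgs2 was at 10907 in PBS 1 and at 6189 to 8364 in the others. The log2 fold change of Rgs2 was 0.41 without PBS 1 and -0.41 without PBS 2. Its sign, like that of Nr4a1, depended on which PBS library was left out. Many of these genes also answer to other signals, such as the T cell receptor, and their part in the level of Crem was not tested.

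The genes whose pattern over the 4 libraries was most like that of Entpd1 and Nt5e were sought among 8173 genes with a mean normalized read count of at least 100, by the root mean square difference of the centred log2 values. For Entpd1 these were Arhgef12 (0.016), Tmem185b (0.035) and Mfap3 (0.038), all lowest in PBS 1 and highest in TSLP 2. For Nt5e they were Ipo5 (0.018), Mef2d (0.020) and Parp14 (0.024), which were highest in PBS 2. These names describe the 4 libraries only.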

How the data were processed

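The authors mapped single-end reads of 50 bases to mm10 with Hisat2, counted them per gene with HTSeq and named DESeq2 for further analysis; the annotation and strand setting are not given in the sources used here. The deposited values are a signal, namely read counts over the size factor of their library. All values (100%) lay within 0.01 of whole multiples of a step, so reads were recovered. The step of PBS 2 is close to 1 (size factor 0.9995), but of its 8153 values of at least 100 only 0.491% were whole before division by the step.

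Members and gene lists were chosen with earlier results of these data known. limma 3.58.1 (R 4.3.3, eBayes with a trend) was fitted to log2(normalized count + 1) over 11392 genes with at least 10 in at least 2 libraries, adjusted by Benjamini-Hochberg over all of them. Fold changes on this scale understate the change of low genes. edgeR 4.0.16 and DESeq2 1.42.0 on recovered reads, other normalizations, filters and pseudocounts, a replicate block, removal of the trend over exon length and leaving out each library were alternatives. Genes named are the 9 members, the 3 most read tested genes of each pathway list, markers of cell types, and others where stated. No pathway gene had an unadjusted p under 0.05 in the main limma fit. Those under it only in an alternative are not all named. Exon lengths came from GENCODE M21, with a unique value for 23307 of 24418 names, of which 27 had turned into dates. One B cell marker was not analysed here.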

Additional observations from a re-analysis of the deposited data

How the results depend on the processing

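Each of the 9 genes was fitted under 14 alternatives. The number of genes in the whole table with an adjusted p under 0.05 was 0 under all 14, and the adjusted p of the 9 genes was at least 0.299. The number of genes with an unadjusted p under 0.05, 192 at first, was 358 without the filter on low counts and 79 to 1858 on leaving out a library, the highest without PBS 2 and the lowest without TSLP 2. For the 79 tested pathway genes this number, 0 at first, was 1 (Akap11) without the filter on low counts, 1 (Akap11) with the replicate block, and 0 to 12 on leaving out a library, the highest without PBS 2 (11 higher and 1 lower). The median log2 fold change of the 9 genes, 0.061 at first, was -0.070 with the trend over exon length removed, and -0.10 (without TSLP 1) to 0.21 (without TSLP 2) on leaving out a library. With that trend removed, the signs of Pde3b (-0.070) and Pde4b (-0.13) turned. On leaving out a library the log2 fold change ran from -0.25 to 0.15 for Nt5e, -0.24 to 0.41 for Pde3b, -0.11 to 0.24 for Pde4b, -0.30 to 0.22 for Crem and -0.13 to 0.039 for Prkar1a, and Entpd1, Adora2a, Pde4d and Pde7a kept their sign. The cause was not tested. The labels do not say whether the replicate numbers pair the samples. The replicate differences had a correlation of 0.00072 between groups, across genes. This value cannot settle the pairing, since PBS 1, the library that stood apart, enters the PBS difference. The replicate block gave 258 genes with an unadjusted p under 0.05 in limma and changed no call among the 9 genes.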
